A study of Homo sapiens with 6 samples.

Results

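Autophagy and lysosome genes were examined in U2OS cells depleted of LSD1. The list held 56 genes chosen by name, of which 34 belong to the autophagy machinery and 22 encode lysosomal enzymes and membrane proteins. Of these genes, 54 of the 15585 genes in the count table were found under their symbols, and the expression of ATG16L1 and NEU1 is not analysed here. U2OS is a human osteosarcoma cell line. RNA-seq was performed on total RNA from cells transfected for 48 h with control siRNA (siCTR, 3 libraries) or with LSD1 siRNA (siLSD1, 3 libraries), and no other treatment or genotype separates the groups. LSD1, encoded by KDM1A, is a histone demethylase that removes methyl groups from H3K4me1 and H3K4me2, and the transcriptome was measured to learn whether its loss alters the expression of DNA replication genes. The labels do not say which LSD1 siRNA was used or whether the libraries of a group came from separate cultures, so the p-values measure the spread between these libraries only.

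Autophagy encloses part of the cytoplasm in a double membrane, the autophagosome, which then fuses with the lysosome. The ULK1 kinase complex starts the process, a class III phosphatidylinositol 3-kinase (PI3K) marks the membrane, ATG9A, the ATG2 proteins and the WIPI proteins expand it, and a ubiquitin-like conjugation system attaches the ATG8 proteins (LC3 and GABARAP), which hold cargo receptors. In the lysosome the proton pump (V-ATPase) keeps the lumen acidic for the hydrolases. TFEB, TFE3 and MITF are related transcription factors (the MiT/TFE family) that bind an E-box in the promoters of many lysosomal genes, and mTORC1 keeps them out of the nucleus when nutrients are plentiful.

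The libraries held 12513511 to 13561344 counted reads. KDM1A, the targeted gene, averaged 488.8 ± 16.4 CPM (read counts scaled to a common library size with edgeR's TMM factors) in the siCTR libraries against 90.3 ± 6.92 CPM in the siLSD1 libraries (SD, n = 3 each). All pairs of libraries were farther apart than counting noise would place them (chi-square per degree of freedom 6.46 to 39.0), and siCTR replicate 2 was farthest from the others, at 22.5 to 39.0. Reads on GC-rich genes also varied between libraries. The mean deviation of log2 CPM in the top 25% of genes by GC content, minus that in the bottom 25%, was 0.23, −0.026 and −0.078 in siCTR replicates 1, 2 and 3 and 0.30, 0.0096 and −0.43 in siLSD1 replicates 1, 2 and 3. Among mesenchymal and bone markers VIM had 9487 to 11615 reads, COL5A1 3683 to 6044 and ALPL 4162 to 5411, whereas RUNX2 and SPARC had 0 to 4 reads. Among markers of other cell types KRT5, KRT14, PTPRC and PECAM1 had 0 to 5 reads, and EPCAM had 28 to 41. In each of these marker lists 1 tested gene had an unadjusted p under 0.05, and both were higher in siLSD1. FN1, which encodes fibronectin, was at 26.7 ± 7.22 CPM in siCTR and 51.8 ± 6.14 CPM in siLSD1 (SD, n = 3 each), a log2 fold change of 0.95 (adjusted p = 0.0216 in edgeR with Benjamini-Hochberg adjustment). CDH1, the epithelial cadherin, had 95, 80 and 66 reads in siCTR and 154, 117 and 143 reads in siLSD1, a log2 fold change of 0.77 (adjusted p = 0.0699 in edgeR and 0.0285 in DESeq2, with Benjamini-Hochberg adjustment). The part of these markers in the results was not tested.

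None of the autophagy and lysosome genes passed an adjusted p of 0.05 between siCTR and siLSD1 in the fit without covariates. Of the 54 genes, 53 passed the filter on low counts, and 0 of these 53 had an adjusted p under 0.05 (edgeR's quasi-likelihood test, Benjamini-Hochberg adjustment over all genes tested), where 1.44% of 11844 genes did, 1.07% higher and 0.371% lower in siLSD1. DESeq2 and limma-voom also gave 0 of 53, where they gave 2.73% and 1.34% of all genes. At an unadjusted p under 0.05 there were 7 genes (13.2%) in edgeR, against 14.0% of all genes tested. DESeq2 gave 7 and limma-voom 6, against 13.2% and 14.3% of all genes. Of the 7 in edgeR, MITF, ATG13, WIPI2, NBR1 and TPP1 were higher in siLSD1, a direction held by 7.48% of all genes at that threshold, and MCOLN1 and ATP6V1H were lower, as were 6.55% of all genes. The log2 fold changes (siLSD1 over siCTR) of the 53 genes ranged from −0.49 to 0.33 with a median of 0.01, beside −0.01 for all genes tested. Of the 53 genes 28 were higher and 25 lower, and of all genes 5598 were higher and 6246 lower. The balance of the 53 rested on single libraries, with 35 higher and 18 lower without siCTR replicate 2 (median 0.042), 23 higher and 30 lower without siCTR replicate 3 (median −0.017), and 26 higher and 27 lower without siCTR replicate 1 (median −0.023). Without siCTR replicate 1 the number was 4, against 14.3% of all genes, of which ATP6V1H and TPP1 were among the 7 and NPC1 and ULK1 were not. Without siLSD1 replicate 2 it was 2, MCOLN1 and ATP6V1H, against 8.86% of all genes. In bulk RNA a change in the number of cells with a transcript and a change in RNA per cell cannot be told apart.

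**Figure D1:**
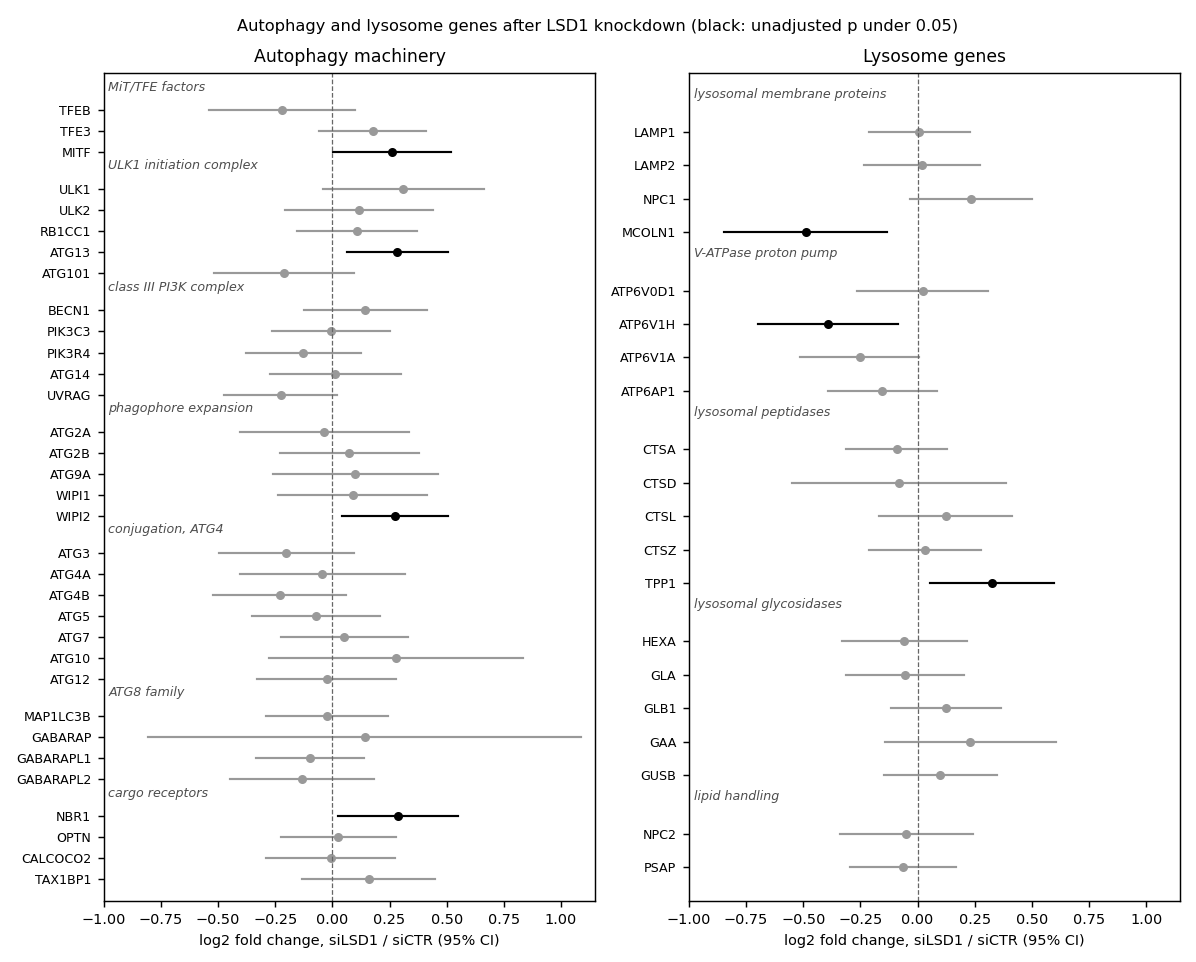
Log2 fold change of each tested gene, siLSD1 over siCTR (x axis), with its 95% confidence interval from edgeR's quasi-likelihood fit, grouped by role, with machinery on the left and lysosome genes on the right. Black marks the 7 genes with an unadjusted p under 0.05; the points lie between −0.49 and 0.33, and most intervals cross 0.

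The confidence intervals show how much change these libraries leave room for. The 95% interval reached a median of 0.28 to either side of the fold change, lay within −0.5 and 0.5 for 36 of the 53 genes, and lay within −1 and 1 for 52 of them. The exception was GABARAP, at 7 to 25 reads. In CPM the libraries of the groups did not overlap for 14 genes, 6 higher and 8 lower in siLSD1, a share of 26.4%, against 21.4% of all genes tested (11.4% higher and 9.97% lower). Among the 33 machinery genes 18 were higher and 15 lower, with a median of 0.03 on the log2 scale, and among the 20 tested lysosome genes 10 were higher and 10 lower, with a median of −0.02. The machinery median was −0.0048 without siCTR replicate 3 and −0.0036 without siLSD1 replicate 3. The lysosome median was 0.05 without siCTR replicate 2 and 0.03 without siLSD1 replicate 3. The sign of either median thus rested on single libraries.

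The MiT/TFE factors, which drive lysosomal genes, did not share a direction. TFEB (chromosome 6, 41683978 to 41736259, GRCh38) had 168, 174 and 171 reads in siCTR and 163, 131 and 148 reads in siLSD1. In CPM every siLSD1 library was below every siCTR library, by a log2 fold change of −0.22 (standard error 0.15, unadjusted p = 0.157), which was −0.04 when a trend on GC content and transcript length was removed from each library. TFE3 (chromosome X, 49028726 to 49043410) was at 206, 176 and 189 CPM in siCTR and 225, 213 and 208 CPM in siLSD1. Here every siLSD1 library was above every siCTR library, by a log2 fold change of 0.18 (standard error 0.11, unadjusted p = 0.127). MITF (chromosome 3, 69739456 to 69968336) was at 151, 148 and 173 CPM in siCTR and 168, 188 and 211 CPM in siLSD1, and siCTR replicate 3 lay above siLSD1 replicate 1. The log2 fold change of MITF was 0.26 (standard error 0.12, unadjusted p = 0.0490). With 1 library left out it lay between 0.18 and 0.34, with an unadjusted p under 0.05 in 2 of the 6 fits and of up to 0.187 in the others, and that p was 0.0518 in limma-voom and 0.0529 with a second counting of the reads. With the trend removed TFE3 was at 0.20 and MITF at 0.22 (unadjusted p = 0.0184 and 0.00527 in edgeR). In that fit 24.8% of all genes had an unadjusted p under 0.05, and the adjusted p was 0.115 for TFE3 and 0.0561 for MITF. The lowest adjusted p of MITF over the 16 alternatives was 0.0302 in edgeR. Compared per length, in the authors' FPKM (reads scaled to gene length and library size), TFE3 had the highest level (51.0 to 66.5), MITF was lower (23.9 to 34.3) and TFEB was at 2.34 to 2.99, and these ranges over the 6 libraries did not overlap.

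**Figure D2:**
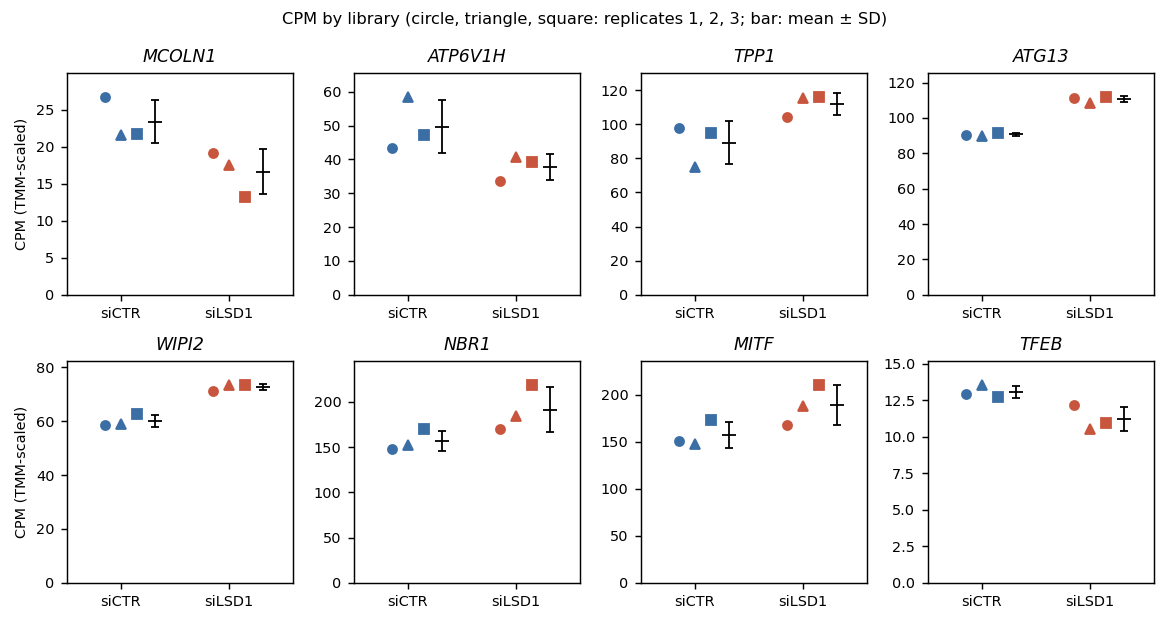
TMM-scaled CPM of 8 genes (y axis, from 0) in the 3 siCTR libraries (blue) and the 3 siLSD1 libraries (red), with the mean and SD of each group in black. MCOLN1, ATP6V1H and TFEB are lower in every siLSD1 library, TPP1, ATG13, WIPI2 and NBR1 are higher in every siLSD1 library, and the MITF libraries overlap.

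The MiT/TFE factors recognise the E-box letters CACGTG, and the flanked form TCACGTGA is the core of the lysosomal element known as CLEAR. A promoter of 300 bases, from 250 before to 50 after the start, was given in RefSeq (GRCh38.p14) for 48 of the 56 genes. Both strands were searched, which for these palindromic letters are the same, and each longer motif contains the shorter ones. TCACGTGA was found in 6 of the 48 (12.5%), namely in 5 of 16 lysosome genes and 1 of 32 machinery genes, in 2.30% of the tested genes with a promoter entry, and in 1.18% of all genes with one (0.980% of all promoters). The same letters with a G before and a C after them occurred in GAA and MCOLN1 (4.17% of the 48), in 0.918% of the tested genes and in 0.421% of all genes with an entry (0.353% of all promoters). CACGTG alone occurred in 18.8% of the 48 genes, NEU1 among them. The share was 12.7% in the tested genes and 8.77% in all genes with an entry (7.26% of all promoters). The windows below show TCACGTGA in capitals, 1 for each gene that has it and nearest to the start where there are several, since these are the promoters in which a change in the MiT/TFE factors could be looked for.
MCOLN1, chr19:7522598-7522627, + strand: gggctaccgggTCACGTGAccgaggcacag
GAA, chr17:80101538-80101567, + strand: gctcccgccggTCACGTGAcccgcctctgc
LAMP1, chr13:113297226-113297255, + strand: cgcggcgcagcTCACGTGAcaagcgctgcc
CTSA, chr20:45891298-45891327, + strand: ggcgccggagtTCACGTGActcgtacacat
ATP6V0D1, chr16:67481199-67481228, − strand: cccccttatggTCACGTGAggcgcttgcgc
ATG3, chr3:112561940-112561969, − strand: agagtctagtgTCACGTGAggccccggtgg
The genes with these windows went both ways. The log2 fold change was −0.49 for MCOLN1, −0.20 for ATG3, −0.09 for CTSA, 0.01 for LAMP1, 0.02 for ATP6V0D1 and 0.23 for GAA, and MCOLN1 was the only one of the 6 with an unadjusted p under 0.05. MCOLN1 and GAA, which both hold the form with G and C at its ends, had opposite signs. A match of letters is a description of the window and was not tested as a binding site.

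In the ULK1 initiation complex ATG13 had the narrowest spread. ATG13, the subunit that links ULK1 to its partners (chromosome 11, 46617527 to 46674818), was at 90.5, 90.0 and 91.6 CPM in siCTR and 111, 109 and 112 CPM in siLSD1. The groups did not overlap, and the log2 fold change was 0.28 (standard error 0.10, unadjusted p = 0.0159, adjusted p = 0.226 in edgeR with Benjamini-Hochberg adjustment). Without siCTR replicate 1, siCTR replicate 3 or siLSD1 replicate 2 the unadjusted p was 0.0508, 0.0523 or 0.0558, at log2 fold changes of 0.28, 0.29 and 0.30. ULK1, the kinase itself, was at 158, 118 and 124 CPM in siCTR and 198, 172 and 126 CPM in siLSD1, with siLSD1 replicate 3 among the siCTR libraries and a log2 fold change of 0.31 (standard error 0.16). Leaving out siLSD1 replicate 1 gave 0.16 for ULK1, and leaving out siLSD1 replicate 3 gave 0.47. ATG101, which stabilises ATG13, had a log2 fold change of −0.21 with overlapping groups, and of −0.082 without siCTR replicate 2. The other members of the complex, ULK2 and RB1CC1, were at 0.12 and 0.11, and with 1 library left out they lay between 0.023 and 0.20 and between −0.0036 and 0.18.

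In the class III PI3K complex the log2 fold changes ran from −0.23 to 0.14, and no gene had an unadjusted p under 0.05. UVRAG, a subunit of the form of the complex that acts on endosomes, was at 42.0, 40.1 and 43.1 CPM in siCTR and 36.0, 34.6 and 36.5 CPM in siLSD1. Each siLSD1 library was below each siCTR library, by −0.23 on the log2 scale (standard error 0.11, unadjusted p = 0.0687). PIK3R4, the scaffold subunit and the member with the highest FPKM, averaged 92.4 ± 8.96 CPM in the siCTR libraries against 84.6 ± 5.33 CPM in the siLSD1 libraries (SD, n = 3 each), with overlapping groups.

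Among the phagophore expansion genes WIPI2, which binds the lipid made by the PI3K and recruits the conjugation machinery, was at 58.7, 59.1 and 62.5 CPM in siCTR and 71.3, 73.5 and 73.3 CPM in siLSD1. WIPI2 (chromosome 7, 5190196 to 5233840) was higher in all siLSD1 libraries, with a log2 fold change of 0.27 (standard error 0.11, unadjusted p = 0.0248, adjusted p = 0.268 in edgeR with Benjamini-Hochberg adjustment). Its unadjusted p was 0.0848 without siCTR replicate 1, 0.0514 without siCTR replicate 3 and 0.0928 without siLSD1 replicate 2, with log2 fold changes of 0.26 to 0.30. The other 4 genes of this step, ATG2A, ATG2B, ATG9A and WIPI1, lay between −0.04 and 0.10. With 1 library left out ATG2A lay between −0.20 and 0.13, and ATG2B between −0.054 and 0.20. The range was −0.088 to 0.22 for ATG9A and 0.057 to 0.14 for WIPI1. Of the exonic bases of ATG9A and WIPI1, 38.8% and 28.1% are shared with other annotated genes, and it is not stated whether strand was used in counting.

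The conjugation genes and the genes of the ATG8 proteins that they attach to lipid passed neither threshold in the fit without covariates. The 7 tested genes of the conjugation system and of the ATG4 proteases had log2 fold changes between −0.23 and 0.28, and 0 of them had an unadjusted p under 0.05. ATG3, the E2-like enzyme for LC3 and the member of this group with the highest FPKM, was at 105, 142 and 118 CPM in siCTR and 93.7, 104 and 120 CPM in siLSD1. ATG4B, the main LC3 protease, was at 57.6, 59.1 and 47.7 CPM in siCTR and 50.3, 49.6 and 40.3 CPM in siLSD1. For both genes the groups overlapped, at log2 fold changes of −0.20 and −0.23. For ATG3 the value was −0.073 without siCTR replicate 2 and −0.30 without siCTR replicate 1, and for ATG4B it was −0.13 without siLSD1 replicate 3 and −0.32 without siCTR replicate 3. With offsets for GC content and length ATG4B had an unadjusted p of 0.0345.

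MAP1LC3B, which encodes the LC3 protein used to follow autophagosomes, was at 63.0, 77.7 and 69.9 CPM in siCTR and 62.5, 71.8 and 72.8 CPM in siLSD1. Its groups overlapped, and the 95% interval ran from −0.29 to 0.24 around a log2 fold change of −0.02. GABARAPL2 averaged 63.8 ± 12.3 CPM in the siCTR libraries against 58.2 ± 5.86 CPM in the siLSD1 libraries (SD, n = 3 each), and GABARAPL1 at 80.6 ± 2.34 and 75.2 ± 4.21 CPM (SD, n = 3). The lowest siCTR library of GABARAPL1, at 78.7 CPM, and the highest siLSD1 library, at 78.1 CPM, were close to each other. MAP1LC3B and GABARAPL1 have near-identical relatives in the genome (MAP1LC3B2 and GABARAPL3), between which the counting could have split reads. GABARAP had 25, 14 and 7 reads in siCTR and 21, 16 and 14 reads in siLSD1, and 48.2% of its exonic bases are shared with other annotated genes. The 95% interval of its log2 fold change ran from −0.81 to 1.09, so a change of that size was not detectable at this depth. In FPKM the order was GABARAPL2 (39.9 to 56.5), then GABARAPL1 (23.5 to 27.5) and MAP1LC3B (20.9 to 25.4), whose ranges over the 6 libraries overlap, and then GABARAP (0.230 to 0.858).

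**Figure D3:**
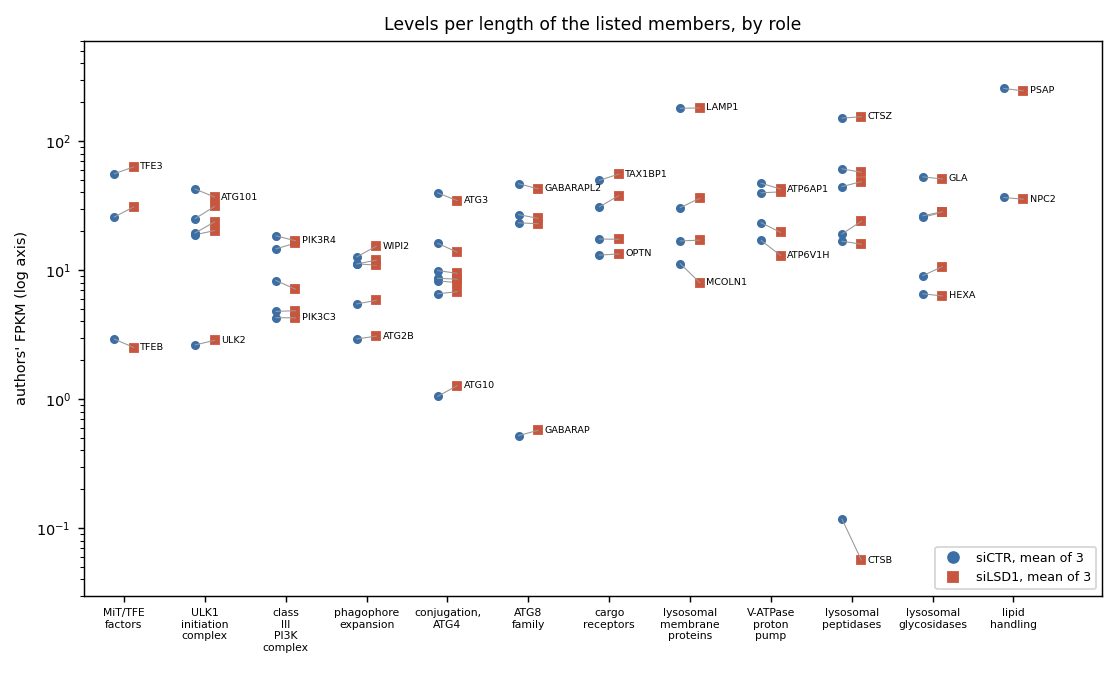
Mean of the authors' FPKM over 3 libraries (y axis, log scale) for each of the 54 genes in siCTR (blue circles) and siLSD1 (red squares), joined by a line and grouped by role, with the highest and lowest gene of each group named. Lysosomal PSAP, LAMP1 and CTSZ are the most abundant and CTSB, GABARAP and ATG10 the least, and the distance between groups of one gene is small beside the distance between genes.

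Of the cargo receptors, which tie ubiquitinated cargo to ATG8 proteins, NBR1 was the one with an unadjusted p under 0.05. NBR1 (chromosome 17, 43170481 to 43211689) was at 148, 152 and 170 CPM in siCTR and 170, 185 and 219 CPM in siLSD1. The highest siCTR and the lowest siLSD1 library were almost level, at 2281 reads of 13444230 and 2284 reads of 13292468. The log2 fold change was 0.29 (standard error 0.12, unadjusted p = 0.0336, adjusted p = 0.301 in edgeR with Benjamini-Hochberg adjustment). For NBR1 the unadjusted p became 0.159 without siLSD1 replicate 3, 0.104 without siCTR replicate 1, 0.0570 without siCTR replicate 2 and 0.0648 without siLSD1 replicate 2, at log2 fold changes of 0.18, 0.25, 0.27 and 0.32, and below 0.05 in the other 2 fits that left out 1 library. TAX1BP1, also highest in siLSD1 replicate 3, was at 175, 189 and 193 CPM in siCTR and 175, 196 and 251 CPM in siLSD1, and its log2 fold change of 0.16 was −8.32e-05 without that library. OPTN and CALCOCO2 had log2 fold changes of 0.03 and −0.01. 

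Among the lysosomal membrane proteins MCOLN1 had the largest fold change of all 53 genes and LAMP1 one of the smallest. MCOLN1, which encodes the lysosomal calcium channel TRPML1 (chromosome 19, 7522624 to 7534009), had 347, 278 and 292 reads in siCTR and 257, 219 and 178 reads in siLSD1. In CPM these were 26.7, 21.6 and 21.7 in siCTR and 19.1, 17.6 and 13.2 in siLSD1, so that every siLSD1 library was below every siCTR library. The log2 fold change was −0.49 (standard error 0.16, 95% interval −0.84 to −0.13, unadjusted p = 0.0107, adjusted p = 0.189 in edgeR with Benjamini-Hochberg adjustment). It was −0.38 with an unadjusted p of 0.0509 without siCTR replicate 1, and its unadjusted p was below 0.05 in the other 5 fits that left out 1 library. LAMP1, the most abundant protein of the lysosomal membrane, averaged 485 ± 13.3 CPM in the siCTR libraries against 488 ± 12.4 CPM in the siLSD1 libraries (SD, n = 3 each), a log2 fold change of 0.01 with a 95% interval of −0.21 to 0.23. LAMP2 had a log2 fold change of 0.02. NPC1, the cholesterol exporter of the lysosome, was at 174, 130 and 168 CPM in siCTR and 187, 183 and 186 CPM in siLSD1. Its siCTR libraries lay below its siLSD1 libraries, siCTR replicate 2 by far the most, and the log2 fold change of 0.24 (standard error 0.12, unadjusted p = 0.0784) was 0.12 without that library.

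Of the 4 V-ATPase genes of the list, 3 were lower in every siLSD1 library than in every siCTR library, as were 9.97% of all genes tested. ATP6V1H, the regulatory subunit H of the cytosolic sector of the pump (chromosome 8, 53715543 to 53843558), was at 43.3, 58.4 and 47.3 CPM in siCTR and 33.5, 40.8 and 39.2 CPM in siLSD1. The groups did not overlap, and the log2 fold change was −0.39 (standard error 0.14, unadjusted p = 0.0158, adjusted p = 0.225 in edgeR with Benjamini-Hochberg adjustment). It was −0.26 (unadjusted p = 0.0718) without siCTR replicate 2, its highest library, and −0.31 (unadjusted p = 0.0647) without siLSD1 replicate 1, its lowest. ATP6V1A, the catalytic subunit, was at 104, 120 and 97.7 CPM in siCTR and 90.6, 97.1 and 81.8 CPM in siLSD1, with no overlap and a log2 fold change of −0.25 (standard error 0.12, unadjusted p = 0.0557), which was −0.16 without siCTR replicate 2. ATP6AP1, an accessory protein of the pump, was at −0.15, also with no overlap, and at −0.086 without siLSD1 replicate 3, and ATP6V0D1 of the membrane sector was at 0.02.

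A second list held 12 further subunit genes of the V-ATPase, and 11 of them were tested. None had an adjusted p under 0.05. Of all 15 tested subunit genes 11 were lower and 4 higher in siLSD1, the median log2 fold change was −0.23, and the groups did not overlap for 7, all lower, against the same 9.97% of all genes. At an unadjusted p under 0.05, 4 of 15 were lower and 0 higher, where 6.55% of all genes tested were lower at that threshold. The largest of the second list was ATP6V0B, a subunit of the proton ring, with 81.7, 109 and 81.9 CPM in siCTR and 78.1, 72.8 and 53.0 CPM in siLSD1 (log2 fold change −0.42, standard error 0.16, adjusted p = 0.259 in edgeR with Benjamini-Hochberg adjustment). Its fold change was −0.27 without siCTR replicate 2 and likewise without siLSD1 replicate 3, and its adjusted p lay between 0.0147 and 0.512 over the 16 alternatives (edgeR, DESeq2 or limma-voom with Benjamini-Hochberg adjustment). The other 2, named after their values were seen, were ATP6V0A2 at −0.30 and ATP6V1E1 at −0.29. Of the 15 genes 11 had their highest CPM in siCTR replicate 2. Without that library the median of the 15 was −0.12, 11 were on the lower side, and 1, ATP6V0A2, was lower at an unadjusted p under 0.05. The number lower at that threshold was 2 without siLSD1 replicate 1 or siLSD1 replicate 2, and 6 without siCTR replicate 1. In either direction the share of all genes was 14.2%, 8.86% and 14.3% in these fits, and 12.7% without siCTR replicate 2. ATP6V0C, another ring subunit, had 0 to 6 reads and was not tested, and 76.3% of its exonic bases are shared with other annotated genes. The lists left out isoforms used mainly in specialised tissues, and 2 of these, named after their values were seen, went the other way. ATP6V0A4 had a log2 fold change of 0.59 (standard error 0.17, unadjusted p = 0.00510) and ATP6V1E2 one of 0.58 (standard error 0.19, unadjusted p = 0.0100).

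**Figure D4:**
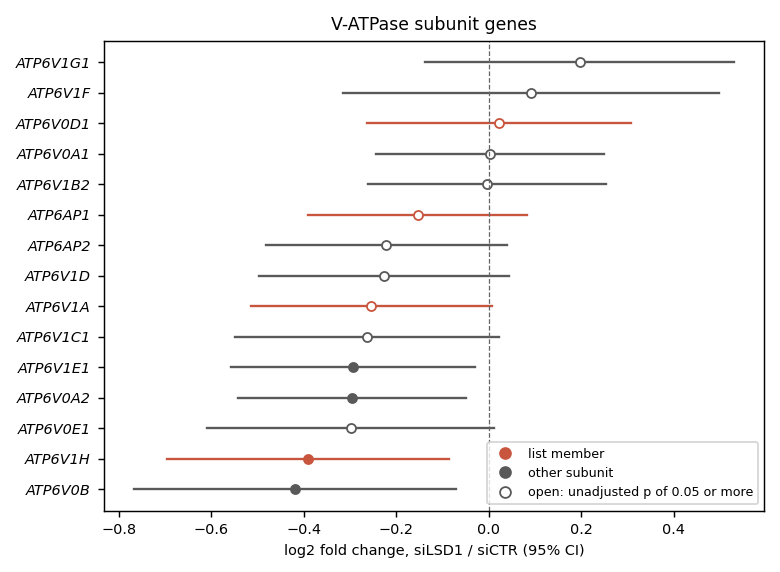
Log2 fold change (x axis, siLSD1 over siCTR) with its 95% confidence interval for the 15 tested V-ATPase genes, in order of fold change, with listed members in red and other subunits in grey. Filled points have an unadjusted p under 0.05; 11 of the 15 points lie below 0, and the 4 filled points are all below 0.

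The lysosomal hydrolases went in both directions. TPP1, the tripeptidyl peptidase (chromosome 11, 6612768 to 6619448), had the largest positive fold change of all 53 genes, at 97.8, 74.8 and 94.8 CPM in siCTR and 104, 115 and 116 CPM in siLSD1. Each siLSD1 library was above each siCTR library, by a log2 fold change of 0.33 (standard error 0.13, unadjusted p = 0.0218, adjusted p = 0.257 in edgeR with Benjamini-Hochberg adjustment). The value was 0.22 (unadjusted p = 0.0514) without siCTR replicate 2, its lowest library, and 0.31 (unadjusted p = 0.0768) without siLSD1 replicate 2. CTSZ, the most abundant cathepsin here in FPKM, averaged 225 ± 17.0 CPM in the siCTR libraries against 231 ± 19.6 CPM in the siLSD1 libraries (SD, n = 3 each). CTSA, CTSD and CTSL had log2 fold changes of −0.09, −0.08 and 0.12. With 1 library left out CTSD lay between −0.30 and 0.15 and CTSL between 0.036 and 0.28. Of the exonic bases of CTSA, CTSD and CTSZ, 21.5%, 48.0% and 31.7% are shared with other annotated genes, and 0% of those of CTSL. CTSB had 12, 4 and 3 reads in siCTR and 2, 6 and 1 reads in siLSD1 and did not pass the filter, so no change in it was detectable at this depth; 0% of its exonic bases are shared with other annotated genes.

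Among the glycosidases GAA, the acid alpha-glucosidase, was at 38.2, 29.8 and 31.3 CPM in siCTR and 43.2, 45.0 and 28.5 CPM in siLSD1. The lowest of all 6 libraries was siLSD1 replicate 3, and the log2 fold change of 0.23 (standard error 0.17) was 0.41 without it. The value was 0.12 without siLSD1 replicate 2, 0.15 without siLSD1 replicate 1 and 0.35 without siCTR replicate 1. GLA, the alpha-galactosidase with the highest FPKM of the group, was at 76.7, 80.9 and 70.9 CPM in siCTR and 77.7, 77.2 and 64.8 CPM in siLSD1. HEXA, GLB1 and GUSB had log2 fold changes of −0.06, 0.12 and 0.10. With 1 library left out HEXA lay between −0.14 and 0.012, GLB1 between 0.088 and 0.18, and GUSB between 0.040 and 0.16. PSAP, the precursor of the saposins and the most abundant of the 54 genes, averaged 738 ± 55.3 CPM in the siCTR libraries against 707 ± 28.3 CPM in the siLSD1 libraries (SD, n = 3 each), and its log2 fold change of −0.06 had a 95% interval of −0.30 to 0.17. NPC2, which hands cholesterol to NPC1, was at −0.05.

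The number of genes past the adjusted threshold depended on whether a trend on GC content and transcript length was removed, and the parts of GC content and of length were not separated. When this trend was removed from each library through the offsets of the edgeR fit, 1013 of 11761 genes had an adjusted p under 0.05 (8.61%, with 599 or 5.09% higher and 414 or 3.52% lower), against 171 (127 higher and 44 lower) without it. Of the 53 autophagy and lysosome genes 5 did (9.43%). At an unadjusted p under 0.05 there were 15 of the 53, 9 higher and 6 lower, where 24.8% of all genes were under it, 12.7% higher and 12.1% lower. Lower were MCOLN1 at −0.40, ATP6V1H at −0.36 and UVRAG at −0.29, and higher were ULK1 at 0.38 and GAA at 0.34. Their adjusted p-values were 0.0467, 0.0317, 0.0370, 0.00520 and 0.0472 in that order (edgeR with Benjamini-Hochberg adjustment). Over the 16 alternatives the adjusted p ranged from 0.0140 to 0.433 for MCOLN1, from 0.0105 to 0.455 for ATP6V1H, from 0.0320 to 0.770 for UVRAG, from 0.00217 to 0.715 for ULK1 and from 0.0417 to 0.902 for GAA (edgeR, DESeq2 or limma-voom with Benjamini-Hochberg adjustment). With the offsets the median over the 53 genes was 0.00035, beside −0.0030 for all genes tested. Of the 15 V-ATPase genes 12 were on the lower side with the offsets, 9 were lower at an unadjusted p under 0.05, and 2, ATP6V1H and ATP6V0A2, were lower at an adjusted p under 0.05, with a median of −0.17.

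**Figure D5:**
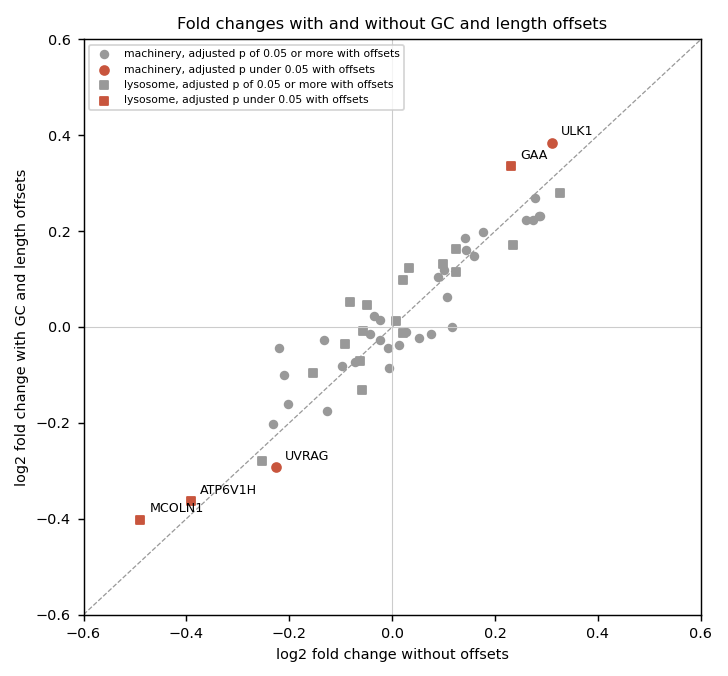
Log2 fold change of the 53 tested genes without (x axis) and with (y axis) offsets for GC content and length, circles for machinery and squares for lysosome genes, with the diagonal as a dashed line. The 5 genes with an adjusted p under 0.05 with the offsets are red and named, and all of them keep the side of 0 that they had without the offsets.

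Neighbouring parts of the pathway were read from further lists. Of 28 other tested autophagy genes 0 had an adjusted p under 0.05, 2 were lower at an unadjusted p under 0.05 (7.14%) and 0 higher, where 6.55% of all genes were lower and 7.48% higher, with a median log2 fold change of −0.06. The larger of the 2 was ATG16L2, a paralogue of ATG16L1, at 23.7, 18.4 and 18.5 CPM in siCTR and 15.8, 17.8 and 13.0 CPM in siLSD1 (log2 fold change −0.38, standard error 0.16). For ATG16L2 the unadjusted p was below 0.05 in 11 of the 16 alternatives, and the fold change was −0.25, with an unadjusted p of 0.182, without siCTR replicate 1. SQSTM1, which encodes the cargo receptor p62, had 9, 13 and 17 reads in siCTR and 8, 13 and 6 reads in siLSD1, too few for a statement on its change. Of 39 other tested lysosomal genes 1 was higher and 2 were lower at the unadjusted threshold (7.69% in all, against 14.0% of all genes), with a median of −0.07, which was −0.034 without siLSD1 replicate 3. With the GC offsets 2 of the 39, IGF2R and PPT1 (the latter named after its values were seen), were higher and 1, SMPD1, was lower at an adjusted p under 0.05. Of all genes 5.09% were higher and 3.52% lower at that threshold with these offsets. SMPD1, the acid sphingomyelinase, was the one gene of these pathway lists with an adjusted p under 0.05 in the edgeR fit without covariates or offsets. It was at 26.9, 30.4 and 24.3 CPM in siCTR and 18.9, 18.2 and 15.5 CPM in siLSD1, a log2 fold change of −0.63 (standard error 0.14, adjusted p = 0.0478 in edgeR with Benjamini-Hochberg adjustment), with each siLSD1 library lower. With any 1 library left out the fold change was between −0.71 and −0.55, and the adjusted p was between 0.0740 and 0.180 (edgeR with Benjamini-Hochberg adjustment). Over all 16 alternatives that p lay between 0.000694 and 0.180, and it was also above 0.05 with scaling by library size only (0.0541), in limma-voom (0.0534) and with a second counting of the reads (0.0612). IGF2R, the receptor that carries hydrolases to the lysosome, was at 270.3, 159 and 243 CPM in siCTR and 302, 291 and 294 CPM in siLSD1. Its log2 fold change of 0.40 (standard error 0.16) was 0.21 without siCTR replicate 2, and its unadjusted p was 0.0618 without siLSD1 replicate 1. The adjusted p of IGF2R was 0.281 in edgeR with Benjamini-Hochberg adjustment and 0.0371 with the GC offsets, and it lay between 0.00930 and 0.552 over the 16 alternatives.

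The mTORC1 and AMPK genes, which set the activity of ULK1 and of the MiT/TFE factors, comprised 30 tested genes, 8 of them higher and 22 lower, with a median log2 fold change of −0.08, which was −0.032 without siCTR replicate 2. Their fold changes lay between −0.31 and 0.40, 0 had an adjusted p under 0.05, and 1 (3.33%) had an unadjusted p under 0.05, against 14.0% of all genes. This was NPRL3, a subunit of the GATOR1 complex that restrains mTORC1 when amino acids are scarce, at 82.7, 76.7 and 71.8 CPM in siCTR and 106, 112 and 86.8 CPM in siLSD1 (log2 fold change 0.40, standard error 0.12, adjusted p = 0.164 in edgeR with Benjamini-Hochberg adjustment). All siLSD1 libraries of NPRL3 were above all siCTR libraries, and its unadjusted p was 0.0533 without siLSD1 replicate 2. With the GC offsets its adjusted p was 0.00301 (edgeR with Benjamini-Hochberg adjustment), and over the 16 alternatives it lay between 0.00179 and 0.577. A second gene of the list, AKT1S1, which encodes an mTORC1 inhibitor and was named after its values were seen, also passed with the offsets, at a log2 fold change of 0.35 against 0.17 without them (adjusted p = 0.0386 in edgeR with Benjamini-Hochberg adjustment). With the offsets 8.61% of all genes passed that threshold, 5.09% higher and 3.52% lower in siLSD1. Protein levels, LC3 lipidation and the location of the MiT/TFE factors, on which autophagy depends after transcription, were not measured in these files.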

How the data were processed

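RNA-seq libraries of U2OS cells, 3 siCTR and 3 siLSD1, were grouped by their labels. Reads were aligned with STAR by the authors, who deposited counts (whole reads per gene, not normalized) and FPKM values (scaled to gene length and library). The genome build, annotation, counter and strand setting are not given in the sources used here. The deposited fold changes and p-values of the authors' own comparison were not used. The authors' tables for pairs of libraries hold a second counting of the same libraries, used as an alternative.

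Counts were tested with edgeR 4.0.16 in R 4.3.3 (TMM scaling, quasi-likelihood test without covariates, filterByExpr at a minimum count of 10), which left 11844 of 15585 genes, with Benjamini-Hochberg adjustment over all of them. Standard errors are the fold change divided by the root of F. Tables and figures were made with pandas 2.3.3, numpy 2.4.6 and matplotlib 3.10.9 in Python 3.11.15. The biological coefficient of variation was 12.6%. On simulated counts with 198 of 11755 genes changed by 1 on the log2 scale, 86.4% were recovered, with 13 false calls among 184. Alternatives were DESeq2 1.42.0, limma-voom (limma 3.58.1), 2 other scalings, no filter, 1 CPM in 3 libraries, a replicate block, each library left out, the second counting, and lowess offsets (span 0.3) for GC content and length, alone and with the block. Symbols of 14963 genes matched GENCODE release 44 directly and 389 through an older symbol; GC content was known for 99.3% of tested genes. Coordinates and exon overlap are from GENCODE (GRCh38), promoters from RefSeq.

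The members, the lists and the rule for named genes were chosen with earlier results of these data known. Named are KDM1A, members with an unadjusted p under 0.05, the 3 largest rises and falls of machinery and of lysosome genes, the MiT/TFE factors, the ATG8 genes, the cargo receptors, the member of each role with the highest FPKM, and from the other lists genes with an adjusted p under 0.05 or the largest rise and fall at an unadjusted p under 0.05. Other genes are given beside their group, or marked as named after their values were seen.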

Additional observations from a re-analysis of the deposited data

How the results depend on the processing

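The fall of KDM1A kept its direction and its side of the threshold in all 16 alternatives. The number of all genes with an adjusted p under 0.05, 171 in edgeR, was 323 with DESeq2, 290 without a filter, 1013 with offsets for GC content and length, and between 58 and 136 with 1 library left out; at an unadjusted p under 0.05 it was 1662, 2914 with those offsets, and between 1061 and 1712 with 1 library left out. Of the autophagy and lysosome genes 0 had an adjusted p under 0.05, 5 did with the offsets, and 0 with any 1 library left out; at an unadjusted p under 0.05 the 7 genes became 15 with the offsets and between 2 and 7 with 1 library left out. Of the 7 genes 2 remained without siCTR replicate 1, and 2 without siLSD1 replicate 2.

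Replicate numbers were checked as pairs. The correlation of deviations between siCTR and siLSD1 libraries with the same number was 0.33, 0.074 and 0.31, and 1 of the 3 was below 0.1, so the numbers were not taken as pairs; each library correlated best with its own number, and the authors' tables for pairs of libraries join libraries of the same number, but no source used here says that a number marks a shared culture or day. With a replicate block 897 genes (7.57%) had an adjusted p under 0.05 and 2546 an unadjusted p under 0.05, and 2 of the autophagy and lysosome genes (3.77%) passed the adjusted threshold, MCOLN1 and ATP6V1H; so did ATP6V0B, IGF2R, NPRL3 and TMEM41B of the other lists, at an adjusted p of 0.0147, 0.00930, 0.0208 and 0.0431 in edgeR (TMEM41B was named after its values were seen). With the block and the GC offsets together the counts were 1528 and 3392 of all genes, and 10 and 18 of the autophagy and lysosome genes (ATG3 and ATG4B among the 18), a share of 18.9% at the adjusted threshold against 13.0% of all genes. There ATP6V0B, IGF2R and NPRL3 had an adjusted p of 0.0249, 0.0161 and 0.00179 in edgeR. Of the 15 V-ATPase genes 7 were lower at an unadjusted and 2 at an adjusted p under 0.05 with the block, and 9 and 6 with the block and the offsets together, where 1 other was higher. Of all genes 408 of 11844 were lower at an adjusted p under 0.05 with the block, and 704 of 11761 with the block and the offsets. At an unadjusted p under 0.05 the shares of all genes in either direction were 21.5% and 28.8%.

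The median of the other autophagy genes, −0.06, lay between −0.098 and −0.031 with 1 library left out, and that of the other V-ATPase subunits, −0.23, between −0.28 and −0.12. With 1 library left out, 25 of the 53 genes changed sign, and the largest fold change among these was 0.16 in size. With the second counting CALCOCO2 was at 0.026 and GABARAP at −0.23. With GC offsets, alone and with the block, MAP1LC3B was at 0.015 and 0.015 and OPTN at −0.0095 and −0.0079. Among the named genes, the log2 fold change with 1 library left out lay between −0.12 and 0.10 for CALCOCO2, −0.036 and 0.086 for CTSZ, −0.22 and 0.69 for GABARAP, −0.22 and 0.039 for GABARAPL2, −0.11 and 0.027 for GLA, −0.014 and 0.030 for LAMP1, −0.099 and 0.057 for MAP1LC3B, −0.025 and 0.084 for OPTN, −0.10 and 0.0016 for PSAP, and −8.32e-05 and 0.27 for TAX1BP1. The cause was not tested for any of these. With 3 libraries a group the 95% interval reached a median of 0.28 to either side of the fold change.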

Other observations

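A few genes that most cells express broadly had very few reads in all 6 libraries. CTSB, the gene of cathepsin B, had 1 to 12 reads a library and 6 to 15 in the authors' second counting, SQSTM1 had 6 to 17 reads and 7 to 17 in the second counting, and GABARAP had 7 to 25 reads and 18 to 64 in the second counting. The share of exonic bases that lie in exons of other annotated genes was 0% for CTSB, 22.4% for SQSTM1 and 48.2% for GABARAP. The part of the counting step in these low values was not tested.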
